A study of Mus musculus with 6 samples.

Results

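The transcripts of 9 enzymes of mitochondrial fatty acid oxidation were followed across the cells of the mouse testis, of 32285 genes counted in all. They were grouped by the function of their enzymes, with earlier results of these data known: the carnitine palmitoyltransferases Cpt1a, Cpt1b and Cpt2, the acyl-CoA dehydrogenases Acadm, Acadl and Acadvl, the trifunctional protein subunits Hadha and Hadhb, and the thiolase Acaa2. Testes came from C57BL/6 wildtype males (C57BL/6N in the study's methods), aged 8 weeks, given 1 of 2 diets for 2 weeks, rich in fat (HFD) or low in fat (LFD), with 3 libraries per diet and no other genotype or agent. The study asked whether a short HFD changes the testis and sperm RNA of the exposed males. Each library was made by droplet single-cell RNA sequencing near the 3-prime end, and the unit is the unique molecular identifier (UMI), a count of captured RNA molecules.

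Long-chain fatty acids are activated to acyl-CoA, and CPT1 at the outer mitochondrial membrane then passes the acyl group to carnitine, which is the controlled step of the pathway and is inhibited by malonyl-CoA. CPT2 at the inner membrane restores the acyl-CoA, after which dehydrogenases of graded chain length, the trifunctional protein and thiolases shorten it by repeated turns of beta-oxidation. In the seminiferous tubule, Sertoli cells are known to oxidise fatty acids and to pass lactate to the germ cells, and Leydig cells use lipids for steroid synthesis.

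The 6 libraries held 48939 barcodes and 429495465 UMIs, between 39196921 and 95845514 per library, and 136975 of these UMIs belonged to the 9 genes. Barcodes were placed in classes by marker genes that do not include the 9, which gave 9276 barcodes (18.954%) with 53.201% of all UMIs, and the other barcodes were mostly shallow, with a median of 2458 UMIs. Levels are given as CPM, the UMIs of a gene scaled to a common total of all UMIs of the class in a library, and the library, not the barcode, is the replicate. The classes with at least 20 barcodes in every library were spermatogonia-like (581 barcodes), early meiotic spermatocyte-like (769), pachytene-like (1308), late spermatocyte-like at division (500), round spermatid-like (2671), elongating spermatid-like (2388), Sertoli-like (653) and macrophage-like (236). Own markers peaked in their own class for 3 of 6 pachytene and 8 of 10 spermatogonia markers and for every marker of the other 6 classes. The classes were gated on these same markers, so such peaks are partly built in. The widest exceptions were Dmrtb1, at 186 CPM in spermatogonia-like and 1333 CPM in late barcodes, and Calr3, at 6.48 CPM in pachytene-like and 179 CPM in elongating barcodes. RNA of late germ cells was present in each class: Prm1, a protamine of elongating spermatids at 72716 CPM there, stood at 1500 CPM in pachytene-like, 2163 CPM in spermatogonia-like, 7032 CPM in macrophage-like and 13073 CPM in Sertoli-like barcodes, on average. The late spermatocyte class held 528 to 9770 CPM of Prm1 over its libraries. In the shallow barcodes left in no class, all under 5000 UMIs, Prm1 stood at 13428 CPM. Their levels of the 9 genes are given beside the classes and called the shallow background. Germ cells under the 5000 UMIs that the gate needs can be among these barcodes, so their levels are not those of RNA from other cells alone. The GEO titles gave the diets used here and the names of the deposited files gave the opposite diet for all 6 libraries. The cell numbers listed by the study match the file names, and not the titles, in each of the 6. Groups were taken from the titles all the same, so each library is called by its labelled diet and every sign of a diet difference would turn if the file names were right.

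The 3 stretches of promoter sequence below are shown because they precede the genes whose germ cell levels moved most or moved apart. The start sites of Hadha and Hadhb lie head to head, and the 85 bases between their annotated exons are at chr5:30155163-30155247 (GRCm38, plus strand, read toward Hadhb). The 250 bases before the start of Acadm are at chr3:153944644-153944893 (minus strand), and 234 of the 250 bases before the RefSeq start of Cpt1a are at chr19:3323051-3323284 (plus strand), inside the annotated span of the gene and outside its exons. Sequences and starts are from RefSeq (GRCm38.p6), and capitals mark AGGTCA, the half-site of many nuclear receptors, and the GC box GGGCGG, each on either strand.
Hadha-Hadhb: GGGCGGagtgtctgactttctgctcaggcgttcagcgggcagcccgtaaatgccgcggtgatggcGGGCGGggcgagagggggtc
Acadm: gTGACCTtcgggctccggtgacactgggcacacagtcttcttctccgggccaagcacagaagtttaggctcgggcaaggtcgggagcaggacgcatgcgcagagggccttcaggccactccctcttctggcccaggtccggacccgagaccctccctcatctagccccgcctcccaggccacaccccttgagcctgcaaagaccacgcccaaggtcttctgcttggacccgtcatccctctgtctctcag
Cpt1a: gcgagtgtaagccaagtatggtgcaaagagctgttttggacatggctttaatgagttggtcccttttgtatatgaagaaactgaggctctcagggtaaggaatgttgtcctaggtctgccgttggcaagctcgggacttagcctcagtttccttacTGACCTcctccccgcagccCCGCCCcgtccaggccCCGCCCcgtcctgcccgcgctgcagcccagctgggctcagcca

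The shared stretch of Hadha and Hadhb was 69.4% G and C and held 2 GC boxes, the Acadm stretch held 1 AGGTCA half-site and the Cpt1a stretch held 1 half-site and 2 GC boxes. Windows of 300 bases around the start were matched for 7 of the 9 genes. AGGTCA was found in 3 of these (Cpt1a, Acadm and Acadvl) and in 16.3% of 32851 promoter windows of the same length, and GGGCGG in 5 of them (Cpt1a, Cpt2, Acadl, Hadha and Hadhb) and in 35.7% of windows. CCAAT was found in 1 (Cpt1a) against 37.4%, TGACG, the core of a cAMP response element, in 1 (Acadm) against 20.8%, and AACTG, the core of a MYB site, in 3 against 44.8%. The windows of Hadha and Hadhb shared 228 bases, and their RefSeq starts lay 273 bases apart. These matches are descriptions of letters and not of factors bound.

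Cpt1a encodes the isoform of liver and most tissues, with lower sensitivity to malonyl-CoA, and Cpt1b the isoform of muscle. Cpt1a (ENSMUSG00000024900, chr19:3322334-3385733, plus strand) was measured at 9.95 to 19.4 CPM in the spermatogonia-like class, with a median of 14.1 over the 6 libraries. It was at 0.584 to 3.62 CPM in the early meiotic class and at 0.187 to 1.30 CPM in the pachytene class. These 3 ranges did not overlap between spermatogonia-like and either spermatocyte class. In the round spermatid-like class only 3 Cpt1a UMIs were found among 103340375, in 3 of the 6 libraries. Against these, the pooled level of spermatogonia-like barcodes was 462-fold higher, with an exact 95% interval of 154 to 2276 that covers counting error only.

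Cpt1b (ENSMUSG00000078937, chr15:89416405-89425863, minus strand) ran the other way. Its level was 11.97 ± 3.97 CPM in spermatogonia-like and 13.2 ± 6.87 CPM in early meiotic barcodes (SD, n = 6), both below the 39.5 ± 9.42 CPM of the shallow background. The pachytene class held 43.3 to 64.5 CPM, with a median of 55.6, and the late spermatocyte class 25.7 to 68.5 CPM with a median of 59.0. Every pachytene library was above each spermatogonia-like and early meiotic library. Cpt1b then stood at 34.1 ± 4.90 CPM in round and 14.3 ± 3.48 CPM in elongating spermatid-like barcodes (SD, n = 6), and the round libraries overlapped with the shallow background. From early meiotic to pachytene it rose by 2.22 ± 0.18 on the log2 scale (SE, adjusted p = 1.34e-16 by edgeR's quasi-likelihood test with Benjamini-Hochberg adjustment over 14461 genes), while Cpt1a fell by 1.37 ± 0.53 (adjusted p = 0.0199). Cpt1a had already fallen by 2.79 ± 0.38 from spermatogonia-like to early meiotic (adjusted p = 9.7e-09), a step at which Cpt1b changed by 0.46 ± 0.24 and was not called (adjusted p = 0.104). The Cpt1a change to pachytene was no longer called without the library HFD replicate 1 (adjusted p = 0.0801) or with barcodes from 2000 UMIs (adjusted p = 0.101). A gene model that spans all of Cpt1b on the same strand, Gm44502, was not among the genes counted.

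The share of Cpt1a among the UMIs of the pair needs no scaling, but it cannot tell a fall of Cpt1a from a rise of Cpt1b. In early meiotic and elongating spermatid-like barcodes Cpt1b averaged 13.2 and 14.3 CPM, and its ranges overlapped those of spermatogonia-like barcodes (11.97 CPM). Cpt1a averaged 2.04 and 0.182 CPM there, beside 14.5 CPM in spermatogonia-like barcodes. A lower share in these classes therefore went with lower Cpt1a and does not show an exchange. In the spermatogonia-like class Cpt1a gave 55.4 ± 7.40% of the pair (SD, n = 6), with 46.0, 66.7 and 54.2% in the libraries labelled HFD and 57.1, 49.1 and 59.1% in those labelled LFD. In the pachytene class the share was 1.12 ± 0.615%, in round spermatid-like 0.105 ± 0.116% and in elongating spermatid-like barcodes 1.12 ± 1.03% (SD, n = 6). All 6 libraries had a lower share in each of these 3 classes than in the spermatogonia-like class, by 54.2, 55.2 and 54.2 percentage points on average (exact sign-flip test over libraries, two-sided p = 0.03125, which is the smallest it can give, and 0.0469 after adjustment over the 6 class pairs). The share also fell by 1.02 points from pachytene to round in all 6 libraries with the same p values, and the other pairs did not pass (adjusted p = 0.969 for pachytene and elongating and 0.15 for round and elongating). Classes with under 10 UMIs of the pair in a library were not tested. Their pooled shares were 10.7% for early meiotic (13 of 122 UMIs, exact 95% interval 5.80 to 17.5%) and 0.323% for late spermatocyte-like barcodes (3 of 930 UMIs, 0.067 to 0.94%). Sertoli-like barcodes gave 48.7% (116 of 238 UMIs, 42.2 to 55.3%) and macrophage-like barcodes 23.5% (8 of 34 UMIs, 10.7 to 41.2%).

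**Figure D1:**
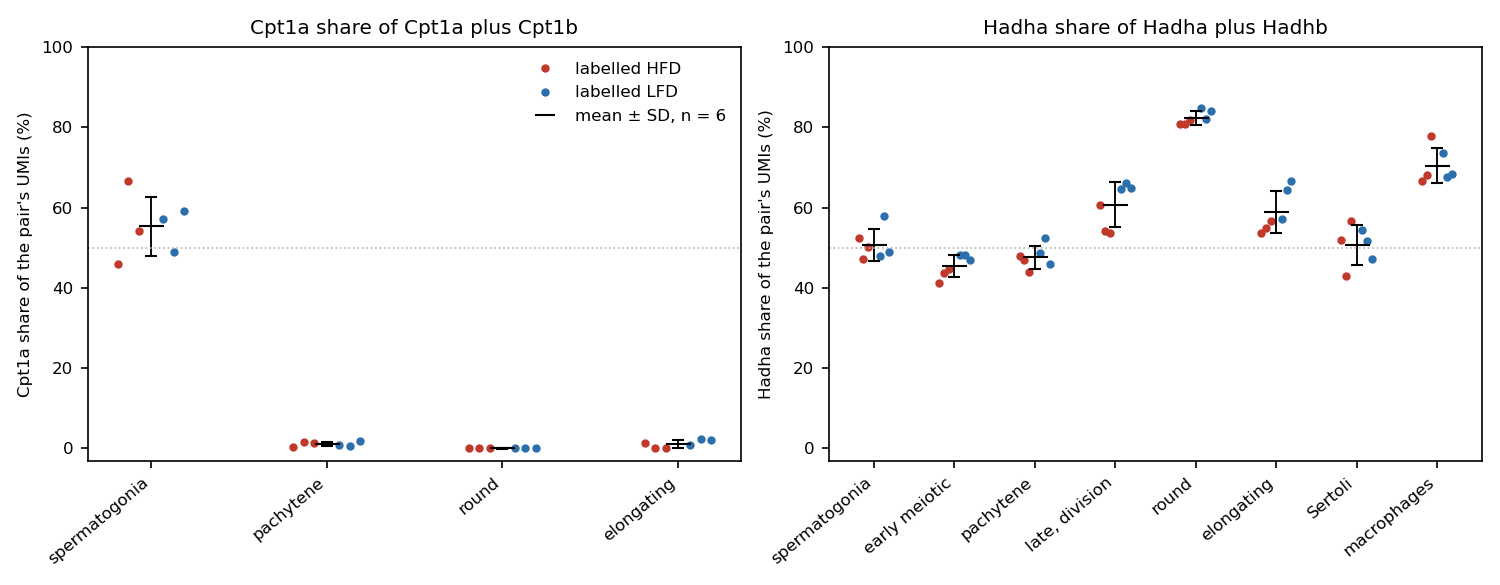
Share of Cpt1a in the UMIs of Cpt1a plus Cpt1b (left) and of Hadha in the UMIs of Hadha plus Hadhb (right), in percent, by class. Points are libraries (red labelled HFD, blue labelled LFD), black marks show mean ± SD of 6 libraries, and the dotted line is 50%. Cpt1a gave 55.4% of its pair in spermatogonia-like barcodes and 1.12% or less in the later classes tested, and Hadha gave 82.4% of its pair in round spermatid-like barcodes.

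Cpt2 (ENSMUSG00000028607, chr4:107903981-107923610, minus strand) accompanied Cpt1b only in part. It stood at 25.9 to 43.4 CPM in spermatogonia-like barcodes (median 32.0) and at 43.4 to 80.3 CPM in the early meiotic class (median 62.7). It rose by 1.07 ± 0.16 log2 at this step (adjusted p = 3.8e-08), which is 1 stage before the rise of Cpt1b. Levels of 53.5 ± 6.05 and 64.5 ± 15.2 CPM followed in the pachytene and late classes, and the late class held 1 low library, HFD replicate 2, at 34.3 CPM with only 25 barcodes. The late-stage rise of 0.37 ± 0.13 (adjusted p = 0.0095) was not called without HFD replicate 3 (adjusted p = 0.0534), without LFD replicate 3 (adjusted p = 0.0504), with no filter on low counts (adjusted p = 0.17) or with barcodes from 2000 UMIs (adjusted p = 0.143). Cpt2 then fell by 0.93 ± 0.13 to round spermatid-like barcodes (adjusted p = 2.81e-09). It changed by -1.71 ± 0.16 to the elongating class (adjusted p = 2.76e-14), which held 2.00 to 5.33 CPM.

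**Figure D2:**
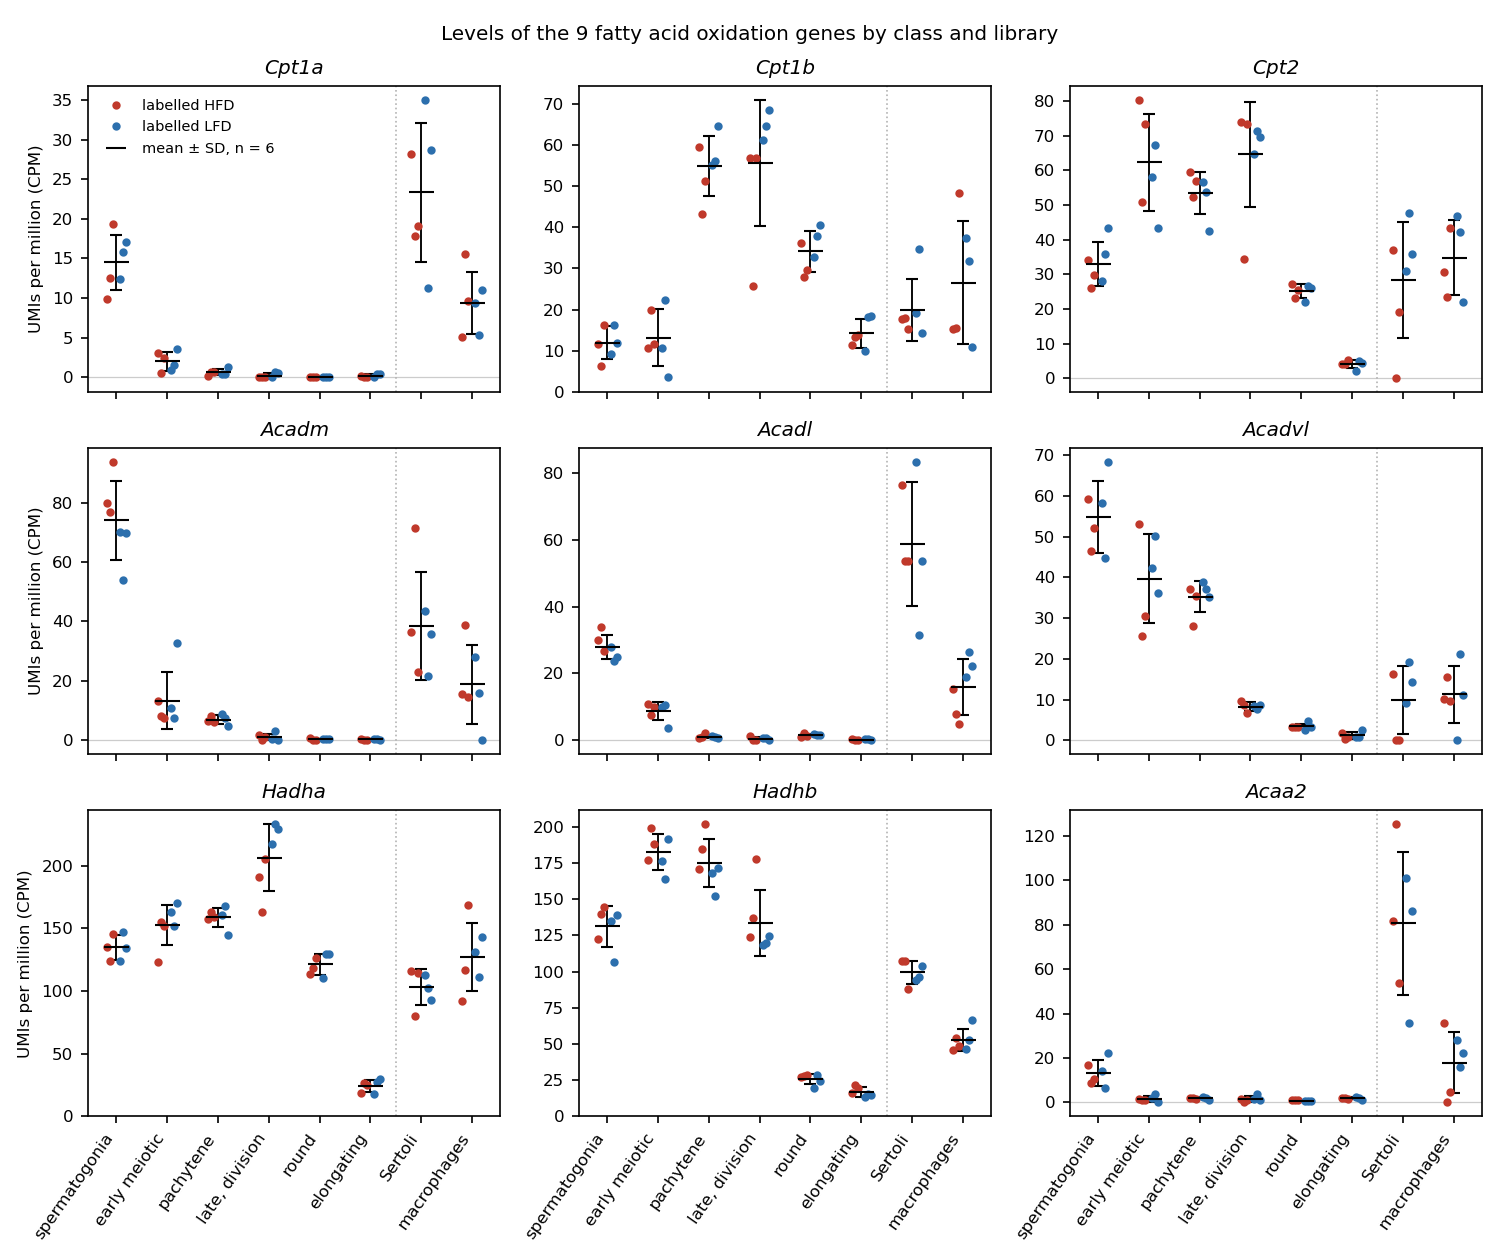
Level of each of the 9 genes (CPM, linear axes that differ between panels) in 6 germ cell classes and, right of the dotted line, 2 somatic classes. Points are libraries coloured by labelled diet, and black marks show mean ± SD of 6 libraries. Cpt1a, Acadm, Acadl and Acaa2 are near 0 in the spermatid classes, whereas Hadha stands at 121 CPM and Cpt1b at 34.1 CPM in round spermatid-like barcodes, beside 118 and 39.5 CPM in the shallow barcodes left in no class (not plotted).

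The acyl-CoA dehydrogenases carry out the first reaction of each turn, on medium (Acadm), long (Acadl) and very long chains (Acadvl). Among the germ cell classes, Acadm (ENSMUSG00000062908, chr3:153922357-153944632, minus strand) was highest in the spermatogonia-like class, at 54.0 to 93.8 CPM with a median of 73.5. The early meiotic libraries held 7.34 to 32.6 CPM with a median of 9.50, and the value of 32.6 came from LFD replicate 3, which had 37 barcodes in that class. Acadm fell by 2.72 ± 0.23 log2 at this step (adjusted p = 6.66e-15). The next called changes were -2.38 ± 0.36 from pachytene to late (adjusted p = 6.7e-08) and -1.73 ± 0.53 from late to round (adjusted p = 0.003). The last of these rests on 20 and 27 UMIs and was not called without LFD replicate 2 (adjusted p = 0.0948). Over all libraries, the spermatogonia-like level was 277-fold that of round spermatid-like barcodes (exact 95% interval 189 to 425, counting error only).

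Acadl (ENSMUSG00000026003, chr1:66830839-66863277, minus strand) fell at both early steps. It was at 23.7 to 34.0 CPM in spermatogonia-like (median 27.4), 3.62 to 10.8 in early meiotic (median 9.81) and 0.467 to 1.98 CPM in pachytene barcodes (median 1.00). The 3 classes did not overlap. The log2 changes were -1.49 ± 0.25 (adjusted p = 9.85e-07) and -2.77 ± 0.33 (adjusted p = 7.43e-11). In round spermatid-like barcodes 152 UMIs gave 1.501 ± 0.443 CPM (SD, n = 6) after 11 UMIs in the late class, with ranges that overlapped the shallow background of 1.77 ± 0.565 CPM. The log2 change of 1.499 ± 0.443 was called (adjusted p = 0.00233) but not without HFD replicate 3 (adjusted p = 0.0512) or with barcodes from 2000 UMIs (adjusted p = 0.0895). With 7 UMIs in elongating spermatid-like barcodes, the pooled ratio of elongating to round was 0.109 (exact 95% interval 0.0429 to 0.229).

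Acadvl (ENSMUSG00000018574, chr11:70010183-70015411, minus strand) had its steepest fall from pachytene to late. Its level was 54.9 ± 8.83 CPM in spermatogonia-like, 39.7 ± 10.9 in early meiotic and 35.3 ± 3.82 CPM in pachytene barcodes (SD, n = 6), with overlapping ranges between neighbours. The first step, at -0.36 ± 0.16 log2, was not called (adjusted p = 0.0547) but was with DESeq2 (-0.60, adjusted p = 0.0068) and with total UMIs in place of TMM scaling (-0.45, adjusted p = 0.0185). The second, at 0.23 ± 0.15, was not called either (adjusted p = 0.169), while DESeq2 called it lower (-0.43, adjusted p = 0.0349) and total UMIs gave -0.16 (adjusted p = 0.371). The late class held 6.68 to 9.68 CPM, below every pachytene library (28.0 to 38.8 CPM). Acadvl fell by 2.08 ± 0.18 log2 at this step (adjusted p = 2e-15) and changed by -0.76 ± 0.20 to round spermatid-like barcodes (adjusted p = 0.000633), which held 2.61 to 4.76 CPM. Acadvl shares 2119 bases with Dvl2 on the opposite strand, and the sources used here do not state whether counting used strand.

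Hadha and Hadhb encode the alpha and beta subunits of the trifunctional protein, which carries out the last 3 reactions on long chains, and both subunits are needed for its activity. Hadha (ENSMUSG00000025745, chr5:30118304-30155162, minus strand) was the most counted of the 9 genes, with 57508 UMIs over all barcodes. Its level ran from 135 ± 9.95 CPM in spermatogonia-like through 153 ± 16.0 and 159 ± 7.70 to 207 ± 26.6 CPM in the late class, and then to 121 ± 8.36 in round and 24.3 ± 4.95 CPM in elongating spermatid-like barcodes (SD, n = 6). Neighbouring classes overlapped up to the late class. The round libraries (111 to 130 CPM) all lay below the late ones (163 to 234 CPM), and the elongating ones (17.8 to 29.8 CPM) below the round ones. The round level was close to the 118 ± 21.0 CPM of the shallow background (SD, n = 6), and the part of RNA from other cells in it was not tested.

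Hadhb (ENSMUSG00000059447, chr5:30155248-30184593, plus strand) had its steepest fall from late to round. It was at 131 ± 14.1, 183 ± 12.7 and 175 ± 16.8 CPM in the first 3 classes and at 134 ± 22.8 CPM in the late class (SD, n = 6). From spermatogonia-like to early meiotic Hadhb rose by 0.57 ± 0.10 log2 (adjusted p = 3.76e-06), and Hadha, at 0.26 ± 0.11, was not called (adjusted p = 0.0523). In round spermatid-like barcodes it was at 19.8 to 28.4 CPM with a median of 27.5, far below the late class with 119 to 178 CPM and a median of 124, and below the lowest library of the shallow background, at 68.5 CPM. Hadhb fell by 1.87 ± 0.10 log2 at this step (adjusted p = 1.06e-23), whereas Hadha fell by 0.30 ± 0.11 (adjusted p = 0.0103), a call lost without LFD replicate 1 (adjusted p = 0.0617) and with barcodes from 2000 UMIs (adjusted p = 0.119). From pachytene to late, Hadhb fell by 0.32 ± 0.10 (adjusted p = 0.0033) and Hadha rose by 0.47 ± 0.11 (adjusted p = 0.000135), a call lost with no filter on low counts (adjusted p = 0.0538). From round to elongating, Hadha fell by 1.35 ± 0.11 (adjusted p = 3.31e-16) and Hadhb was 0.37 ± 0.10 higher on this scale (adjusted p = 0.00131), although its CPM went from 26.0 ± 3.35 to 16.8 ± 3.17 (SD, n = 6) and the sign turns with another scaling, given further on.

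The share of Hadha among the UMIs of the pair needs no scaling and is given as a description chosen after the levels were seen. It was 50.8 ± 3.96% in spermatogonia-like, 45.5 ± 2.77% in early meiotic and 47.7 ± 2.87% in pachytene barcodes, 60.7 ± 5.55% in the late class, 82.4 ± 1.67% in round and 58.9 ± 5.31% in elongating spermatid-like barcodes (SD, n = 6). The 6 round libraries, at 80.8 to 84.8%, lay above every library of the other 5 germ cell classes, the highest of which was at 66.7%. Capture can differ between genes, so the share is compared between classes and does not give the ratio of the 2 transcripts in a cell. In Leiden clusters of the barcodes the share in the round class was 75.0%, and under a stricter gate 84.8%. The clusters were given their classes by scores of the marker lists, so neither value is free of the markers.

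Acaa2 (ENSMUSG00000036880, on the plus strand) encodes the thiolase that ends each turn for medium chains. Its level was 6.67 to 22.3 CPM in spermatogonia-like barcodes (median 12.3) and 0 to 3.74 CPM in the early meiotic class (median 1.38). It fell by 2.69 ± 0.42 log2 at this step (adjusted p = 2.34e-07), and no library of the later germ cell classes exceeded 3.798 CPM. From round to elongating it rose by 2.23 ± 0.30 (adjusted p = 2.3e-09), from 0.848 ± 0.239 to 1.91 ± 0.417 CPM (SD, n = 6), levels below or near the 2.32 ± 1.20 CPM of the shallow background. The size of this log2 change depends on the scaling. At this step the median of all genes was 0.01 with TMM, 0.63 with DESeq2 and -0.99 with total UMIs.

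Between neighbouring germ cell classes, most genes of the testis changed, and the counts of the 9 are read against that. From spermatogonia-like to early meiotic, 2 of the 9 were called higher and 4 lower, where 27.9% and 26.8% of 14461 genes were. From early meiotic to pachytene 3 were higher and 2 lower, against 33.2% and 34.2%, and from pachytene to late 2 were higher and 3 lower, against 28.5% and 35.4%. From late to round 1 was higher and 5 were lower, against 37.0% and 31.4%. From round to elongating 3 were higher and 4 lower, against 33.6% and 36.3%, and the higher call of Cpt1a there compares 7 UMIs with 3 (pooled ratio 5.497, exact 95% interval 1.25 to 32.9). The median log2 change of the 9 was -0.36, 0.23, -0.32, -0.76 and -0.31 over the 5 steps, and that of all genes 0.14, -0.11, -0.13, 0.05 and 0.01. The summed CPM of the 9 was 496 ± 34.2, 476 ± 5.66, 488 ± 16.5 and 472 ± 55.6 in the 4 classes up to the late spermatocytes, 213 ± 14.6 in round and 63.1 ± 9.88 in elongating spermatid-like barcodes (SD, n = 6). Hadha and Hadhb made up most of the sum before the spermatid stage and Hadha in the round class.

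**Figure D3:**
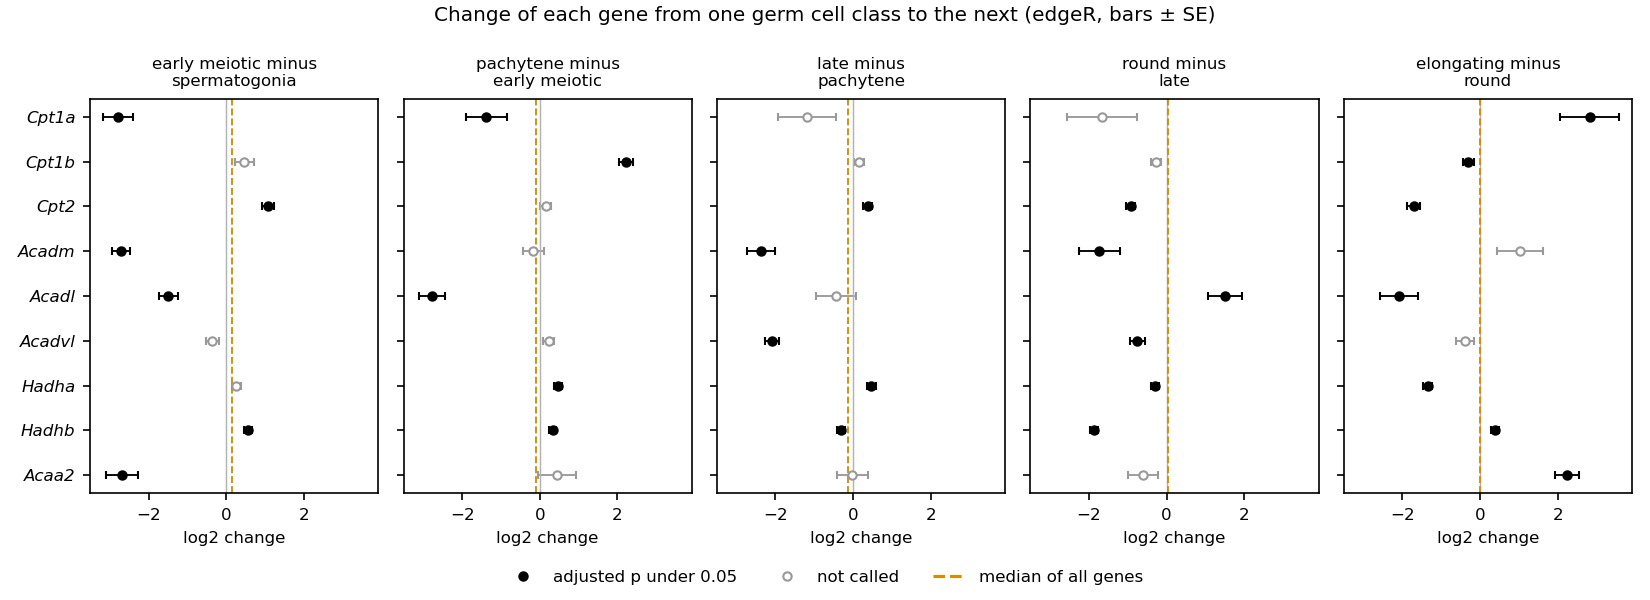
Log2 change of each gene from one germ cell class to the next, with bars of ± 1 SE (edgeR on UMI sums of 6 libraries, library as a term). Filled points passed an adjusted p of 0.05, open points did not, and the dashed line is the median of all 14461 genes. Cpt1b rose by 2.22 to pachytene, Acadvl fell by 2.08 to the late class and Hadhb fell by 1.87 to the round class.

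Changes of all sizes moved with the scaling, and some small ones turned sign. With DESeq2 size factors the median of all genes was -0.08, -0.80, 0.04, -0.31 and 0.63 over the 5 steps, and with total UMIs in place of TMM it was 0.04, -0.48, -0.19, -0.43 and -0.99. The share of calls that were higher moved with it: from 51.0 to 38.0% (DESeq2) at the first step, from 49.2 to 27.6% and 36.3% at the second, from 54.1 to 42.6% and 38.6% at the fourth and from 48.1 to 68.3% and 19.3% at the fifth (total UMIs given last). From early meiotic to pachytene, Hadha was 0.46 ± 0.11 higher (adjusted p = 0.000182) and Hadhb 0.33 ± 0.10 higher (adjusted p = 0.00206) in the TMM scale, but with DESeq2 they were at -0.20 and -0.34, and with total UMIs at 0.07 and -0.06, so no direction is given for them at that step. Likewise Hadhb from round to elongating was at -0.65 with total UMIs, and Cpt1b there, at -0.31 ± 0.14 (adjusted p = 0.0483), was at 0.27 with DESeq2. This Cpt1b call was lost without HFD replicate 1 (0.07), HFD replicate 3 (-0.02), LFD replicate 1 (-0.27) or LFD replicate 3 (-0.29). The values of Hadha and Hadhb to pachytene were 0.10 and 0.02 without HFD replicate 1 and 0.09 and -0.08 without HFD replicate 3. Relative to the median of all genes, these changes had the same sign in the 3 scalings: 0.60 and 0.55 for Hadha and 0.46 and 0.42 for Hadhb to pachytene, 0.33 and 0.33 for Hadhb to elongating and -0.37 and -0.35 for Cpt1b to elongating with DESeq2 and total UMIs. Subtracting that median removes any shift that a scaling gives to all genes alike. The agreement was therefore largely set in advance and gives no direction. The falls of Cpt1a, Acadm, Acadl, Acadvl and Hadhb named above and the rise of Cpt1b to pachytene kept their direction in all 3.

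Sertoli cells nurse the germ cells inside the tubule, and the Sertoli-like class differed from the mean of the germ cell classes in 5 of the 9 genes, all higher, where 38.6% of genes were called higher and 12.4% lower. Cpt1a was at 11.2 to 35.0 CPM (median 23.7), Acadl at 31.6 to 83.3 CPM (median 53.7), Acadm at 21.4 to 71.5 CPM (median 36.1) and Acaa2 at 35.9 to 125 CPM (median 83.8). In every library these stood above the shallow background, whose highest libraries held 2.04, 2.37, 3.88 and 4.47 CPM. The log2 differences were 5.24 ± 0.26, 4.78 ± 0.19, 3.38 ± 0.23 and 4.78 ± 0.18, with adjusted p of 3.69e-25, 3.67e-30, 1.21e-19 and 1.27e-30 by edgeR. Acaa2 in the Sertoli-like class did not overlap with any germ cell class. Beside the spermatogonia-like class alone, the libraries overlapped for Cpt1a, Acadl and Acadm. Acadm was lower there on average, at 38.6 CPM in Sertoli-like against 74.1 CPM in spermatogonia-like barcodes. The fifth call, Hadhb at 0.21 ± 0.09 (adjusted p = 0.0473), was lost without any 1 of the 6 libraries (adjusted p = 0.0636 to 0.801), with a change of sign without HFD replicate 1 (-0.10) or HFD replicate 3 (-0.04).

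The other genes did not stand clear above the shallow barcodes in the Sertoli-like class. Cpt1b (19.9 ± 7.53 CPM), Cpt2 (28.4 ± 16.7), Acadvl (9.85 ± 8.31), Hadha (103 ± 14.1) and Hadhb (99.6 ± 7.97 CPM; SD, n = 6) compared with 39.5, 33.5, 13.6, 118 and 91.9 CPM in the shallow barcodes. The ranges over libraries overlapped for all 5, but Cpt1b was below the lowest shallow library (29.3 CPM) in every Sertoli-like library except LFD replicate 2. These barcodes had a median of 2184 UMIs, and the 8 markers of elongating spermatids summed to 20124 to 69932 CPM in them. The library LFD replicate 2 held 1867490 UMIs in 76 Sertoli-like barcodes, the lowest Cpt1a, Acadl, Acadm and Acaa2 and the highest Cpt1b, Cpt2 and Acadvl of the 6. The part of spermatid RNA in these values was not tested.

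Macrophage-like barcodes had 4 of the 9 genes higher and 1 lower than the mean germ cell class, against 18.9% and 9.23% of genes. Cpt1a (9.34 ± 3.89 CPM), Acadm (18.8 ± 13.3), Acadl (15.9 ± 8.32) and Acaa2 (17.8 ± 13.7 CPM; SD, n = 6) were higher by 3.86 ± 0.72, 2.64 ± 0.54, 2.92 ± 0.56 and 2.86 ± 0.55 log2, and Hadhb was lower by 0.70 ± 0.16 (adjusted p from 1.51e-05 to 0.00151). The counts were small, with 8, 17, 14, 16 and 47 UMIs in the 6 libraries together. Spermatogonia-like barcodes alone held more Cpt1a, Acadm and Acadl on average, at 14.5, 74.1 and 27.9 CPM, and less Acaa2, at 13.3 CPM.

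Leydig-like and stromal-like barcodes were too few to test and are given as pooled counts with exact 95% Poisson intervals for counting error. The 6 Leydig-like barcodes came from 3 libraries, 4 of them with 43329 of the 81752 UMIs from HFD replicate 1. In them, Acaa2 was at 844 CPM (657 to 1068), Acadl at 624 (464 to 820), Acadm at 428 (298 to 595) and Cpt1a at 97.9 CPM (42.2 to 193). No Cpt1b UMI was found there, which allows up to 45.1 CPM. In 153 peritubular and stromal-like barcodes (1210008 UMIs), Acaa2 was at 176 CPM (153 to 201), Acadm at 95.04 (78.5 to 114), Acadl at 94.2 (77.7 to 113) and Cpt1a at 47.9 CPM (36.4 to 62.0), and Cpt1a gave 72.5% of the UMIs of its pair with Cpt1b (58 of 80 UMIs, exact 95% interval 61.4 to 81.9%). The intervals hold no spread between libraries, so no order of these 2 classes is given.

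The other genes of the pathway were counted in the same way. Of 15 other enzymes of mitochondrial oxidation 14 were tested, and 3 were called higher and 9 lower from spermatogonia-like to early meiotic (median -1.57), where 27.9% and 26.8% of all genes were. To pachytene 2 were higher and 10 lower (median -1.67), against 33.2% and 34.2%. With DESeq2 the counts were 2 and 11, then 0 and 12, and with total UMIs 3 and 10, then 1 and 11. At the first step, Eci1 and Eci2, isomerases for unsaturated chains, fell by 2.99 and 2.09, Etfb, a subunit of the flavoprotein that takes electrons from the dehydrogenases, fell by 1.94, and Acadsb rose by 1.99. At the second, Etfa, Hsd17b10 and Eci1 fell by 3.10, 5.06 and 3.06. In Sertoli-like barcodes 11 of the 14 were higher and 0 lower than the mean germ cell class, against 38.6% and 12.4% of all genes, led by Hadh (7.10), Echs1 (5.75) and Acads (5.40), which encode enzymes of short chains.

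Of 10 genes of activation and the carnitine shuttle, 5 were called higher and 4 lower from early meiotic to pachytene, against 33.2% and 34.2% of all genes. Crat, Slc25a20, the carnitine carrier of the inner membrane, and Acsl6 rose by 2.20, 1.63 and 1.91 at the step at which Cpt1b rose, and Acsl1 fell by 2.01. Acsl1 then rose by 2.86 from late to round and by 2.24 to elongating spermatid-like barcodes, where Acsl5 rose by 4.21. The rises to elongating are on the TMM scale, and their size moves with the scaling. Of 11 genes of peroxisomal oxidation 10 were tested, and 1 was higher and 9 lower at the first step, against 27.9% and 26.8% of all genes. From late to round 6 were higher and 1 lower, against 37.0% and 31.4%, with Decr2 at 3.64 and Scp2 at 1.32. With DESeq2 4 of the 10 were higher and 2 lower at that step, and with total UMIs 5 and 1. Of 11 regulators 8 were tested, and from late to round 3 were higher and 2 lower, against the same shares. The fatty acid receptor gene Ppara rose by 4.50 and its partner Rxra by 5.11 from late to round, and Mlycd, which removes malonyl-CoA, fell by 2.38. Over the same step Esrra fell by 3.44 after a rise of 1.94 to pachytene. For comparison, Ldhc, the lactate dehydrogenase of germ cells, went from 1292 ± 477 CPM in spermatogonia-like to 7554 ± 553 CPM in pachytene and 7193 ± 203 CPM in round spermatid-like barcodes (SD, n = 6), Pgk2 from 51.3 ± 22.4 to 623 ± 76.6 CPM in round and Pdha2 from 42.4 ± 14.4 to 332 ± 24.8 CPM in pachytene.

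By the correlation of log2(CPM + 1) over 48 class and library sums, and among 17415 genes with at least 100 UMIs, the genes most alike to each of the 9 were found. Cpt1a was most alike to Lmo4 (r = 0.963), Sdc4 and Eci2, Cpt1b to 1700028J19Rik (r = 0.897), 4930488L21Rik and Gm27045, and Cpt2 to Dgat1 (r = 0.947), Yipf2 and Maf1. Acadm was most alike to Stxbp3 (r = 0.940), Prorsd1 and Psma7, Acadl to Zyx (r = 0.953), Ubqln2 and Map4k4, and Acadvl to Actr5 (r = 0.936), Ipo11 and Clk2. Hadha was most alike to Brd2 (r = 0.970), Tpp2 and Ewsr1, Hadhb to Bloc1s2 (r = 0.975), Mtx2 and Sdhc, and Acaa2 to Aldh2 (r = 0.924), Arl4d and Hadh. Among the 9 themselves, Cpt1a and Acadl were most alike (r = 0.918), and Cpt1b had its lowest values with Acadl (r = -0.452) and Cpt1a (r = -0.435). The 48 points share 6 libraries and 8 classes of different depth, so these values are descriptions only.

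The last comparison asked whether the level of any of the 9 genes differed between the diets. In whole testis, with all barcodes of a library summed, none of the 9 was called between the libraries labelled HFD and LFD, where 0% of 20727 genes were called by edgeR, 471 had an unadjusted p under 0.05, and DESeq2 also called 0. Within the 8 classes, 49 tests of the 9 genes passed the filter on low counts, from 1 in macrophage-like to 9 in spermatogonia-like and Sertoli-like barcodes, and none was called, again against 0% of all genes in each class. The number of genes with an unadjusted p under 0.05 in the classes ran from 69 in the late spermatocyte class to 750 in the round class, and DESeq2 called 1 gene in spermatogonia-like and 4 in pachytene barcodes, none of them among the 9. In bulk sums a difference in the number of cells of a type and one in RNA per cell cannot be told apart.

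Hadhb had the lowest unadjusted p of the 9 in whole testis. It stood at 78.2, 95.8 and 112 CPM in the libraries labelled HFD and at 68.5, 85.3 and 65.7 CPM in those labelled LFD. The groups overlapped in 1 library, LFD replicate 2. The log2 difference was 0.44 ± 0.17 with an unadjusted p of 0.0245 and an adjusted p of 0.986 by edgeR. Cpt1a was the only one of the 9 whose whole-testis values did not overlap, at 1.17, 0.902 and 0.860 CPM in libraries labelled HFD and 1.23, 1.38 and 1.56 CPM in those labelled LFD, where 6.98% of 24468 genes did not overlap. Its log2 difference was -0.43 ± 0.24 (adjusted p = 0.986). The other 7 genes differed by -0.19 to 0.17 log2, with SEs of 0.15 to 0.33.

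Within the classes, the diets did not overlap in 6 of the 67 combinations of gene and class with at least 10 UMIs, beside 8.31% of such combinations over all genes. None of the other 5 of the 72 combinations was without overlap. Acadm in spermatogonia-like barcodes was at 80.0, 76.9 and 93.8 CPM in the libraries labelled HFD and at 70.1, 54.0 and 69.7 CPM in those labelled LFD, with a log2 difference of 0.34 ± 0.19 (unadjusted p = 0.0975, adjusted p = 1). The other combinations were Hadhb in elongating and Acaa2 in round spermatid-like barcodes, both higher in libraries labelled HFD, and Cpt1b and Hadha in the late class and Acadl in macrophage-like barcodes, all lower. Without HFD replicate 1, Cpt1b in round spermatid-like barcodes was called at -0.44 log2 (adjusted p = 0.0451 by edgeR), where 886 genes were called, beside 0 with all libraries. The share of Cpt1a in its pair with Cpt1b did not pass a test between the diets in the 4 classes measured (exact permutation test, two-sided, smallest possible p 0.1, lowest p = 0.2).

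**Figure D4:**
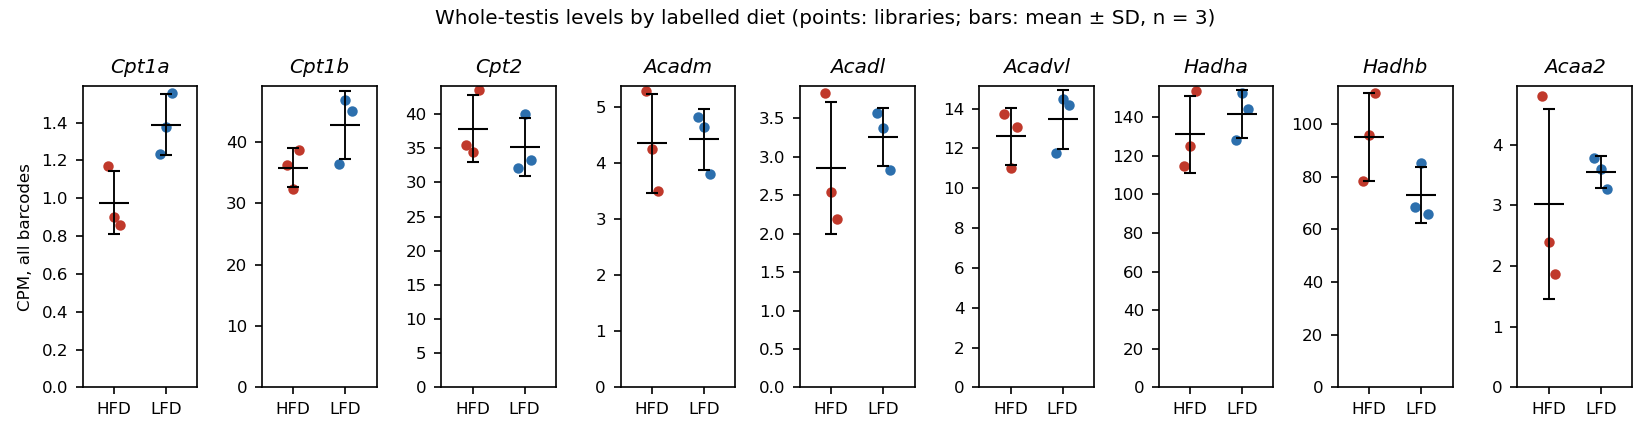
Whole-testis level of each gene (CPM over all barcodes, axes from 0 that differ between panels) in the 3 libraries labelled HFD and the 3 labelled LFD, with mean ± SD. Cpt1a, at 0.860 to 1.17 against 1.23 to 1.56 CPM, is the only panel without overlap.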

How the data were processed

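Single-cell RNA-seq was measured in 6 testis libraries (3 mice per diet in the study's methods), and p-values measure the spread between these libraries. Raw UMI counts per gene and barcode were deposited by the authors, who used Cell Ranger 6.0.1 on mm10 (GRCm38), with its own choice of barcodes; the version is also in the submitters' processing notes. The labels and the methods differ on the version of the library kit. Diets were taken from the GEO titles. The study's filter of 200 to 40000 genes removed 0 barcodes, no doublets were removed, and 12 to 28 barcode sequences were shared by each pair of libraries.

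A germ cell class needed at least 5000 UMIs, a marker score over 0.2 and 1.5 times the next score, where the score is the mean of marker CPM over their 99th percentile. A somatic class needed 1000 UMIs, 4 of its markers and 1000 CPM of them, 2 times any other somatic list. The gate was set after the data were seen, and 2860 deep barcodes fell between germ cell classes. Among these classes, sums of UMIs per library were tested with edgeR 4.0.16 (R 4.3.3; TMM, default filter, quasi-likelihood test, Benjamini-Hochberg adjustment, call at an adjusted p under 0.05), with library as a term between classes and with no covariate between diets, and SEs came from the F value. Alternatives were DESeq2 1.42.0, no filter, other gates, Leiden clusters (scanpy 1.11.5), Scrublet doublets left out, each library left out, and a replicate or batch term. Figures and exact tests used Python 3.11.15. On simulated counts the whole-testis test recovered 85.5% of 200 genes changed by 1 log2 unit among 20464 genes, with 10 false calls. The 200 were drawn from genes with a mean of at least 10 CPM. Cpt1a, Acadl, Acaa2 and Acadm, at 1.15, 3.12, 3.37 and 4.50 CPM over all barcodes, lie below that, so the recovery does not cover them.

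The genes and lists were chosen with earlier results of these data known. Named were the 9 genes, the 3 genes most alike to each, and up to 4 called genes with the smallest p per list and contrast. Intervals cover counting error only. Gene places are from GENCODE M21.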

Additional observations from a re-analysis of the deposited data

Results flagged for a closer look

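In each class the 6 libraries were checked for one that stood far from the others, by Dixon's test at its 95% limit. Of 72 combinations of gene and class 7 passed, where chance gives about 5%, or 3.6. Of these, 3 were in the late spermatocyte class, which had only 24 and 25 barcodes in 2 libraries: Cpt1b at 25.7 CPM and Cpt2 at 34.3 CPM were low in HFD replicate 2, and Hadhb at 178 CPM was high in HFD replicate 3. Acadm at 32.6 CPM was high in LFD replicate 3 of the early meiotic class, which had 37 barcodes there. Cpt1b at 34.8 CPM was high in LFD replicate 2 of the Sertoli-like class. Acadvl at 28.0 CPM was low in HFD replicate 2 of the pachytene class, and at 4.76 CPM high in LFD replicate 2 of the round spermatid-like class. Without HFD replicate 1, Cpt1b in round spermatid-like barcodes was lower in the libraries labelled HFD by 0.44 log2 (adjusted p = 0.0451 by edgeR), the 1 call among 833 fits of the 9 genes by diet over all settings.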

How the results depend on the processing

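Counts of genes called between classes stayed within 1.5 times the main count in every alternative. The stricter gate left no late spermatocyte class and Leiden clusters no spermatogonia, late or macrophage class, so contrasts with these were not run there. Between diets, 0 genes were called in whole testis and each class. With no filter the counts were 5 in spermatogonia-like, 1 in early meiotic, 68 in pachytene, 77 in late, 20 in round, 13 in elongating and 4 in Sertoli-like barcodes, and with DESeq2 1 in spermatogonia-like and 4 in pachytene. Leaving out 1 library gave 0 to 2 in whole testis and in spermatogonia-like, 0 to 886 in round (without HFD replicate 1) and 0 to 16 in elongating barcodes (without LFD replicate 1). With the replicate number as a block, 24 genes were called in whole testis (1 higher, 23 lower), 171 in pachytene, 15 in elongating and 1 in Sertoli-like barcodes, none of the 9 among them. Same-numbered libraries deviated together by r = 0.487, 0.031 and 0.262. HFD replicate 1 and LFD replicate 1 were most alike to each other across the diets, but not every library was most alike to its own number. Those 2 libraries had pachytene medians of 46090 and 42915 UMIs per barcode, against 7022 to 14046 in the others. They also had 1029 and 646 elongating barcodes, against 108 to 243. The numbers thus do not pair all samples, but the libraries of replicate 1 resemble each other, for a cause that was not tested.

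Small changes between classes reversed: Hadha to pachytene with DESeq2 (-0.20), Hadhb there with DESeq2 (-0.34), total UMIs (-0.056) or 1 library left out (-0.075 to 0.37), Hadhb from round to elongating with total UMIs (-0.65) and Leiden clusters (-0.26), Cpt1b there with DESeq2 (0.27), the stricter gate (0.13) or 1 library left out (-0.38 to 0.072), and Hadhb in Sertoli-like barcodes with no filter (-0.10), from 2000 UMIs (-0.058) or with 1 library left out (-0.10 to 0.24). The settings from 2000 UMIs and with total UMIs were added after the data were seen. The cause was not tested.

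Leaving out 1 library, the Cpt1a share changed by -55.9 to -52.1 (pachytene), -57.1 to -53.0 (round) and -56.2 to -51.7 points (elongating) from spermatogonia-like, and by -1.16 to -0.86 from pachytene to round, with adjusted p at 0.0938 since 5 libraries allow no less. Pachytene to elongating ran from -0.33 to 0.32 (0.15 under the stricter gate). HFD minus LFD ran from -5.01 to 5.32 in spermatogonia-like and -0.39 to 0.28 in pachytene barcodes (0.086 under the stricter gate, and 0.019 for round). Whole-testis diet changes ran from -0.50 to 0.036 (Acadl), -0.23 to 0.17 (Acadm), -0.17 to 0.0038 (Hadha), -0.19 to 0.083 (Acadvl) and -0.77 to 0.10 (Acaa2).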

Other observations

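The share of Hadha in the UMIs of Hadha plus Hadhb was lower in whole testis in the libraries labelled HFD, a pattern noticed after the levels were seen and not tested. In whole testis it was 59.5, 56.6 and 57.9% in the libraries labelled HFD and 65.2, 64.1 and 68.7% in those labelled LFD, a difference of -8.02 points with no overlap. The share of other pairs of genes without overlap was not computed. Within the 8 classes the difference ran from -9.02 points in the late class to 0.926 points in macrophage-like barcodes. The diets did not overlap in 4 of them (early meiotic, late, round and elongating), and overlapped in spermatogonia-like, pachytene, Sertoli-like and macrophage-like barcodes. The share differs between classes, so in whole testis a difference in cell numbers and one within cells cannot be told apart. The direction would turn with the diets of the file names, which the study's cell numbers match. The classes come from the same 6 libraries and are not independent of one another, and neither gene passed its own test between the diets.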
